A study of Mus musculus with 3 samples.

Results

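The genes described here are 10 imprinted growth genes of the mouse, *Mest*, *Igf2*, *H19*, *Dlk1*, *Peg3*, *Cdkn1c*, *Plagl1*, *Grb10*, *Meg3* and *Ndn*, out of 32285 genes counted in healing skin wounds. They were taken by symbol, and the list was selected on the fall of *Mest* from Day 7 to Day 14, seen in the pooled levels of these same sections. The levels of the members on each day are therefore a description of the data that led to the choice, and no test was made on them. Skin wounds of C57BL/6J mice were taken fresh frozen at Days 3, 7, and 14 post injury, with 1 section per day laid on a Visium slide, whose barcoded spots capture polyadenylated RNA so that each molecule is counted by its unique molecular identifier (UMI). All 3 groups carried an untreated wound of the same strain and differed in the labels by the day only, and no unwounded skin is among the samples analysed here. With 1 section per day, the day, the animal and the section cannot be told apart. Levels are given as CPM, the UMIs of a gene per 1000000 UMIs of all genes under tissue. Intervals are exact 95% intervals that cover counting error only, and a ratio is called 2-fold without any test between animals.

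An imprinted gene is transcribed mainly from the copy inherited from 1 parent, in most cases because methylation laid down in the germ line differs between the copies. Many imprinted genes act on growth before birth: those read from the paternal copy, such as *Igf2*, *Mest*, *Dlk1*, *Peg3* and *Plagl1*, tend to favour it, and those read from the maternal copy, such as *H19* and *Cdkn1c*, tend to restrain it. Most are turned down in the tissues of adults, and several are known to come back in regenerating muscle and in repair. The UMIs do not separate the parental copies, so the parental origin of the RNA was not measured here.

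The members lie in 7 places of the genome, given here in the GENCODE M21 annotation of GRCm38. *H19* (chr7:142575529-142578143, minus strand) and *Igf2* (chr7:142650766-142666816, minus strand) are neighbours with 72622 bases between them, and *Cdkn1c* (chr7:143458339-143461050, minus strand) lies 791522 bases beyond *Igf2*. *Dlk1* (chr12:109452823-109463336, plus strand) and *Meg3* (chr12:109541001-109571726, plus strand) form another pair with 77664 bases between them. *Mest* lies at chr6:30723547-30748465 on the plus strand, *Peg3* at chr7:6703892-6730431 on the minus strand and *Ndn* at chr7:62346569-62350262 on the plus strand. *Plagl1* lies at chr10:13060504-13131694 on the plus strand and *Grb10* at chr11:11930508-12038683 on the minus strand. *H19* and *Meg3* are non-coding RNAs, and the other 8 members encode proteins. *Copg2*, itself imprinted, overlaps the 3′ end of *Mest* on the opposite strand. The handling of strand in the counting is not given in the sources used here, and *Copg2* held 25, 113 and 154 UMIs on Days 3, 7, and 14, the reverse of the course of *Mest* between Days 7 and 14.

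*Plagl1* encodes a zinc finger factor that is known as a regulator of other imprinted genes and whose known binding motif is GGGGCCCC, which reads the same on both strands. Since the members were high together on Day 7, their promoters were searched for it. RefSeq windows of 300 bases (250 before and 50 after a start) on GRCm38.p6 were found for 8 of the 10 members, 15 windows in all. The motif was present in 1 of these 15 windows, that of *Peg3*, and in 1.08% of the 32851 windows of the table. The windows of *Mest*, *Peg3* and *Plagl1* itself are shown to let the match be seen, with the motif in capitals. The *Mest* window is at chr6:30737800-30738099 on the plus strand, that of *Peg3* at chr7:6730370-6730669 on the minus strand and that of *Plagl1* at chr10:13090582-13090881 on the plus strand.
Mest: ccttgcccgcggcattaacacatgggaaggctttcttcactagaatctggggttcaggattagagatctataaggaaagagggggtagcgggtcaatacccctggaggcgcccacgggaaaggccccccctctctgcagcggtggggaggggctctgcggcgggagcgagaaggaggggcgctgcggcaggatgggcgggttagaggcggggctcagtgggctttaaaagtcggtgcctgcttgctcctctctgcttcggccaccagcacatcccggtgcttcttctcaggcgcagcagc
Peg3: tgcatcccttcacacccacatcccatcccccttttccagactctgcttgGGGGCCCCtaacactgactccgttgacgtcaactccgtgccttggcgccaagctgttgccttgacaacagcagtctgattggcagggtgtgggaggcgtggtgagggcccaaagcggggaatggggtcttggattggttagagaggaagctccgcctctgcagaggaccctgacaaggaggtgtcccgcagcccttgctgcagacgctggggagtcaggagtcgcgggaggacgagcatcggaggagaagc
Plagl1: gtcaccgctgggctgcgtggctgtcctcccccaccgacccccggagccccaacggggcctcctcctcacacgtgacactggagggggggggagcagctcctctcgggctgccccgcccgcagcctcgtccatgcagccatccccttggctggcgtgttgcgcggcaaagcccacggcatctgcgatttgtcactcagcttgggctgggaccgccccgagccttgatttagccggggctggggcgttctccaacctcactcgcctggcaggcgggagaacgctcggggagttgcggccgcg
A match is a description of the letters, and no binding was measured. The windows held 17 CpG in *Mest*, 13 in *Peg3* and 26 in *Plagl1*, against a median of 7 over all windows.

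The transcripts of *Mest*, *Igf2*, *H19* and *Meg3* also carry microRNAs, which the poly(A) capture does not count. The mature sequences of those in *Mest* and *H19* from RefSeq are given with the seed, bases 2 to 8, in capitals. Those in *Igf2* and *Meg3* are not shown. No seed is shared between the sequences shown.
miR-335-5p in Mest: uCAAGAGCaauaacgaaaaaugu
miR-335-3p in Mest: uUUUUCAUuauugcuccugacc
miR-675-5p in H19: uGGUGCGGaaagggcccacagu
miR-675-3p in H19: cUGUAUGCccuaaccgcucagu

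The sections differed in depth. The spots under tissue numbered 664, 549 and 697 on Days 3, 7, and 14 and held 1772259, 4442962 and 4611723 UMIs, with median spots of 1513, 6687 and 4827 UMIs. Spots not marked as tissue held 49.0% to 59.2% of the UMIs of a slide. As a check of the wound, *Postn*, the periostin gene of granulation tissue, was at 239.8, 3692 and 550.1 CPM, and *Ckm*, the creatine kinase of skeletal muscle, at 5411, 8633 and 8961 CPM. All 10 genes of the muscle list and all 10 of the granulation list were detected in each section.

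The members were at their highest on Day 7. From Day 3 to Day 7, 9 of the 10 members were at least 2-fold higher, where 8.04% of the 10541 genes with at least 50 UMIs over both sections were. The median log2 ratio was 1.85 for the members and 0.04 for all genes. From Day 7 to Day 14, 8 of the 10 were at least 2-fold lower, where 7.34% of 11746 genes were, with medians of -1.87 for the members and 0.13 for all genes. All 10 members had an interval below 0 from Day 7 to Day 14, where 22.7% of the 11746 genes did. With all spots of the slide 8 members were 2-fold higher on Day 7 and 7 were 2-fold lower on Day 14, and with the mean of spot CPM 8 were higher on Day 7. These shares are printed beside counts that the choice of the list had in view, and nothing is read from them. A spot holds several cells, so more cells of a type and more RNA per cell cannot be told apart in any of these values.

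*Mest*, which encodes a protein of the alpha/beta hydrolase fold and is a marker of mesoderm in the embryo, held 122, 1269 and 58 UMIs on Days 3, 7, and 14. Its level went from 68.8 CPM (57.2 to 82.2) to 285.6 CPM (270.1 to 301.8) and then to 12.6 CPM (9.55 to 16.3). Day 7 was the high section and Day 14 the low, and the 3 intervals did not overlap. The ratio was 4.15-fold from Day 3 to Day 7 (log2 2.05, 1.78 to 2.33), and Day 14 was 22.7-fold below Day 7 (log2 -4.51, -4.91 to -4.13). On Day 14 the level was also below that of Day 3, by 5.47-fold (log2 -2.45, -2.93 to -1.99).

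*Igf2*, the growth factor insulin-like growth factor 2, was nearly absent on Day 3, with 5 UMIs. It held 232 UMIs on Day 7 and 60 on Day 14, which gave 2.82 CPM (0.916 to 6.58), 52.2 CPM (45.7 to 59.4) and 13.01 CPM (9.93 to 16.8). The ratio of Day 7 to Day 3 was 18.5-fold, and with so few UMIs on Day 3 its log2 interval ran from 2.97 to 5.85. Unmarked spots of the Day 3 slide held 16 further UMIs at 9.39 CPM, and with all spots of the slides the log2 ratio was 2.63 in place of 4.21. The Day 14 level of *Igf2* was above that of Day 3 (log2 2.21, 0.90 to 3.88, and 1.04 with all spots of the slides).

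*H19*, a non-coding RNA that shares its enhancers with *Igf2*, had the most UMIs of the members on Day 7, while *Meg3* had more on Days 3 and 14. *H19* held 161, 3013 and 466 UMIs in the order of the days, or 90.8 CPM (77.4 to 106), 678.2 CPM (654.2 to 702.8) and 101 CPM (92.1 to 110.7). The rise to Day 7 was 7.46-fold (log2 2.90, 2.67 to 3.14) and the fall to Day 14 was 6.71-fold (log2 -2.75, -2.89 to -2.61), so that Days 3 and 14 were close (log2 0.15, -0.11 to 0.42). With all spots of the slides the log2 ratios were 1.93 to Day 7, -2.44 to Day 14 and -0.51 for Day 14 over Day 3, and with the mean of spot CPM the first was 2.30. The UMIs of *H19* per UMI of *Igf2* went from 32.2 (13.5 to 101) to 12.99 (11.4 to 14.9) and 7.77 (5.93 to 10.3) over the course. The pair therefore changed unequally, with less *H19* per *Igf2* on Day 14 than on Day 7.

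*Dlk1*, a membrane protein related to Notch ligands that holds back the maturation of fat cells, held 6, 120 and 11 UMIs on Days 3, 7, and 14. These gave 3.39 CPM (1.24 to 7.37), 27.0 CPM (22.4 to 32.3) and 2.39 CPM (1.19 to 4.27), so that *Dlk1* was above the intervals of the other days on Day 7. The fall from Day 7 to Day 14 was 11.3-fold (log2 -3.50, -4.54 to -2.61), the next largest after that of *Mest*. *Meg3*, the non-coding RNA of the same cluster, held 298, 1678 and 1080 UMIs, or 168.1 CPM (149.6 to 188.4), 377.7 CPM (359.8 to 396.2) and 234.2 CPM (220.4 to 248.6). Its fall to Day 14 was the smallest of the members (1.61-fold, log2 -0.69, -0.80 to -0.58). The UMIs of *Meg3* per UMI of *Dlk1* went from 49.7 (22.6 to 136) to 14.0 (11.6 to 17.0) and 98.2 (54.7 to 197). The coding gene of this cluster thus fell more than the non-coding gene, whereas in the other cluster *H19* fell more than *Igf2*.

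*Peg3*, a large zinc finger protein, held 14, 278 and 146 UMIs, which is 7.90 CPM (4.32 to 13.3), 62.6 CPM (55.4 to 70.4) and 31.7 CPM (26.7 to 37.2). It rose 7.92-fold to Day 7 and fell 1.98-fold to Day 14 (log2 -0.98, -1.28 to -0.69), just short of 2-fold. With TMM factors or DESeq2 size factors that log2 ratio was -1.08 or -1.10, past 2-fold. *Plagl1* held 32, 253 and 72 UMIs, or 18.1, 56.9 and 15.6 CPM, with a log2 ratio of 1.66 (1.12 to 2.24) to Day 7 and -1.87 (-2.27 to -1.48) to Day 14. Both factors were highest on Day 7, but Day 14 was above Day 3 for *Peg3* (log2 2.0, 1.21 to 2.91) and not distinguishable from it for *Plagl1* (log2 -0.21, -0.83 to 0.44).

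Among the members that restrain growth, *Cdkn1c*, the cyclin-dependent kinase inhibitor p57, held 39, 256 and 86 UMIs, or 22.01, 57.6 and 18.7 CPM. *Grb10*, an adaptor that damps signalling from the insulin and IGF1 receptors, held 101, 590 and 167 UMIs, or 57.0, 132.8 and 36.2 CPM. Both had their high value on Day 7, and the log2 ratios to Day 7 were 1.39 (0.90 to 1.91) for *Cdkn1c* and 1.22 (0.91 to 1.54) for *Grb10*. *Cdkn1c* was below 2-fold with all spots of the slides (log2 0.89 to Day 7 and -0.90 to Day 14), and *Grb10* with the mean of spot CPM (0.97 to Day 7). *Ndn*, which encodes necdin, a protein of the MAGE family that holds cells out of the cycle, differed from the other members. It held 72, 189 and 66 UMIs, and its level of 40.6 CPM (31.8 to 51.2) on Day 3 was within the interval of Day 7 (42.5 CPM, 36.7 to 49.1) before it fell to 14.3 CPM (11.1 to 18.2) on Day 14. Over the whole course, 2 of the 9 members with enough UMIs were at least 2-fold higher on Day 14 than on Day 3, where 14.4% of 10955 genes were, and 2 were at least 2-fold lower, where 6.83% were. Those were *Igf2* and *Peg3* above, and *Mest* and *Ndn* below.

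**Figure D1:**
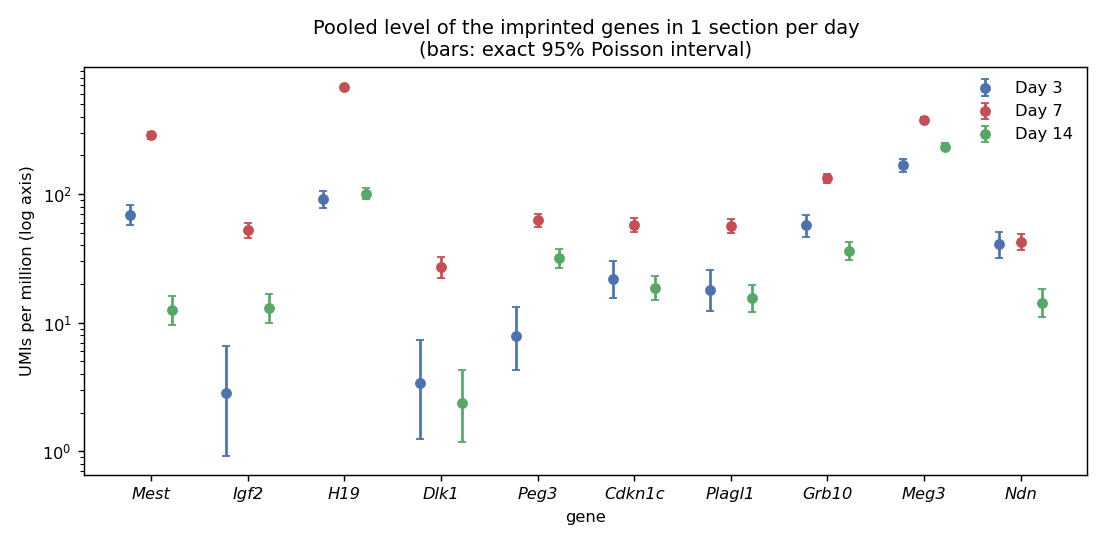
Level of each member (horizontal axis) in CPM on a log axis, 1 point per section, with exact 95% Poisson bars. Day 7 is the highest point of each gene, from 27.0 CPM in *Dlk1* to 678.2 CPM in *H19*, and in *Ndn* the Day 3 point (40.6 CPM) lies beside it (42.5 CPM).

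The place of the UMIs was described next, since the *Postn* and *Ckm* levels differed between the 3 sections. Among spots with at least 500 UMIs, the 20% with the highest *Postn* level and at least 2 *Postn* UMIs were called *Postn* spots, and *Ckm* spots were set in the same way. There were 55, 104 and 128 *Postn* spots and 104, 104 and 132 *Ckm* spots on Days 3, 7, and 14, and 361, 327 and 423 other spots. The 0, 4 and 6 spots in both classes were left out. The *Postn* spots were the deeper ones on Days 3 and 7, with medians of 5690 and 13660.5 UMIs against 1947 and 7342 in other spots, and the part of depth in the values below was not tested. A class is set by a level relative to its own section, so the *Postn* spots of Day 3 (724.3 CPM of *Postn*) held less *Postn* than the other spots of Day 7 (2520 CPM).

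On Day 7, 8 of the 10 members were higher in *Postn* spots with an interval above 0, where 14.4% of 9286 genes were. The ratios were moderate: only *Dlk1* was at least 2-fold higher, where 1.51% of these genes were. The median log2 ratio of the members was 0.69, against -0.05 for all genes. *Mest* stood at 416.7 CPM in *Postn* spots (643 UMIs) and 225.0 CPM in other spots (593 UMIs), a log2 ratio of 0.89 (0.73 to 1.05). *Dlk1* stood at 42.8 and 19.4 CPM (log2 1.14, 0.59 to 1.70) and *Cdkn1c* at 82.3 and 43.3 CPM (log2 0.93, 0.55 to 1.31). Without its richest spot *Dlk1* was below 2-fold (log2 0.93). *Peg3*, *Plagl1*, *Grb10*, *H19* and *Ndn* had log2 ratios between 0.53 and 0.72. *Igf2* went the other way, with 42.1 CPM in *Postn* spots and 58.4 CPM in other spots (log2 -0.47, -0.91 to -0.05), and *Meg3* had an interval that held 0 (log2 0.13, -0.01 to 0.28).

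On Day 14, 3 of the 9 members with at least 50 UMIs in the spots compared were at least 2-fold higher in *Postn* spots, where 2.21% of 9885 genes were. *Mest* had 21 UMIs in *Postn* spots and 32 in other spots, or 25.9 and 9.39 CPM (log2 1.46, 0.59 to 2.30). *Igf2* had 21 and 34 UMIs, or 25.9 and 9.98 CPM (log2 1.37, 0.52 to 2.20). *H19* stood at 165.1 and 71.6 CPM (log2 1.21, 0.89 to 1.52), and *Meg3* at 367.1 and 218.3 CPM (log2 0.75, 0.55 to 0.95). The *Mest* and *Igf2* values rest on few UMIs, and across the 689 spots of Day 14 with at least 500 UMIs the Pearson r of *Mest* with *Postn* was 0.00757. On Day 3, none of the 5 members with enough UMIs was 2-fold higher in *Postn* spots, where 3.12% of 5350 genes were. *Mest* was higher there by less than 2-fold (107.4 against 68.04 CPM, log2 0.66, 0.07 to 1.22), and *H19* was lower there (44.1 against 77.9 CPM, log2 -0.82, -1.69 to -0.05).

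The course over the days was also followed inside the classes. Within *Postn* spots *Mest* went from 107.4 to 416.7 and 25.9 CPM, a fall from Day 7 to Day 14 of 16.1-fold (log2 -4.01, -4.71 to -3.39), and within other spots it fell 24.0-fold (log2 -4.58, -5.14 to -4.07). *Mest* was thus lower on Day 14 in both classes. The classes are not matched for *Postn* between days. *Postn* spots of Day 14 held 1543 CPM of *Postn*, and other spots of Day 7 held 2520 CPM. For *Igf2* the fall differed by class: within *Postn* spots the log2 ratio was -0.70 (-1.49 to 0.03), whereas in other spots it was -2.55 (-3.13 to -2.01). For *Meg3* the interval within *Postn* spots also held 0 (410.2 and 367.1 CPM, log2 -0.16, -0.36 to 0.04). *Cdkn1c*, *Plagl1* and *Grb10* fell within *Postn* spots by log2 values between -1.67 and -1.63.

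*Postn* itself fell 6.71-fold from Day 7 to Day 14, so the members were also counted per *Postn* UMI of their section. *Mest* per *Postn* UMI was 0.287 (0.233 to 0.352), 0.0774 (0.0730 to 0.0819) and 0.0229 (0.0173 to 0.0297) on Days 3, 7, and 14. It fell from day to day, so the Day 7 peak of *Mest* was less steep than that of *Postn* and its later fall was steeper. *H19* per *Postn* UMI was 0.184 on both Day 7 (0.177 to 0.191) and Day 14 (0.166 to 0.203). *Peg3* per *Postn* UMI was 0.0169 (0.0150 to 0.0191) on Day 7 and 0.0575 (0.0484 to 0.0680) on Day 14, and *Meg3* was 0.102 (0.0972 to 0.108) and 0.426 (0.396 to 0.457). *H19* fell as *Postn* did, and *Peg3* and *Meg3* fell less.

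**Figure D2:**
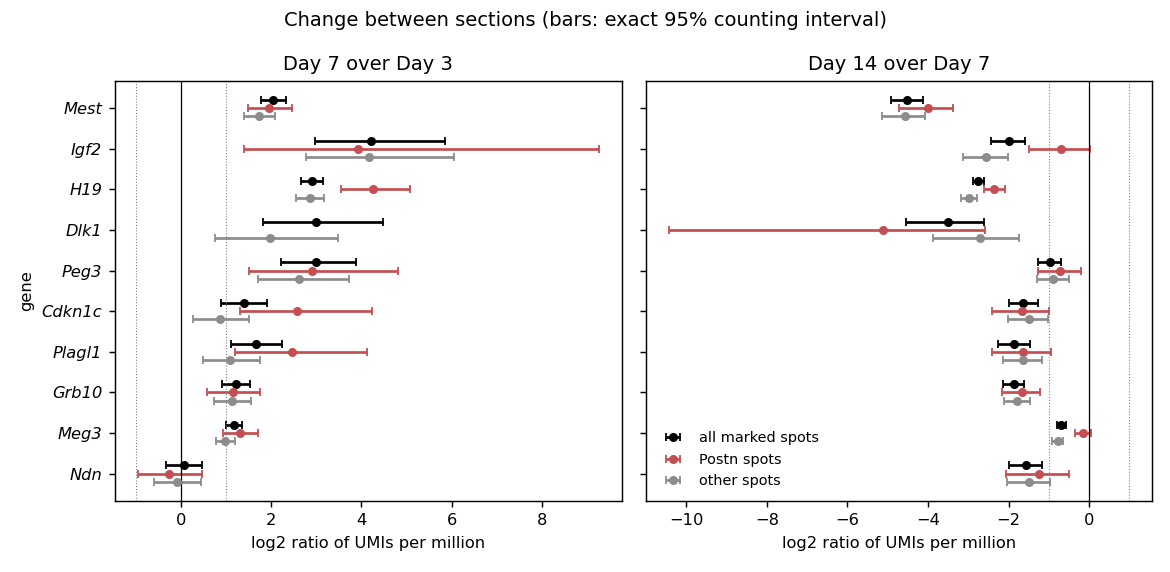
Log2 ratio of CPM between sections (horizontal axes) for each member, in all marked spots, in *Postn* spots and in other spots, with exact 95% counting bars; dotted lines mark 2-fold, and a ratio with 0 UMIs on a side is not drawn. *Mest* lies between -4.58 and -4.01 from Day 7 to Day 14 in all 3 sets, while *Igf2* (-0.70) and *Meg3* (-0.16) have bars that reach 0 in *Postn* spots.

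In *Ckm* spots *H19* was the only member with an interval above 0 on every day, by an amount that depended on how the spots were set. The Day 3 section had 274.2 CPM in *Ckm* spots and 77.9 CPM in other spots (log2 1.82, 1.28 to 2.34), the Day 7 section 878.4 and 563.5 CPM (log2 0.64, 0.43 to 0.84) and the Day 14 section 219.0 and 71.6 CPM (log2 1.61, 1.23 to 1.98). Of the members with enough UMIs, 1 of 4 was at least 2-fold higher in *Ckm* spots on Day 3, where 8.74% of 4659 genes were. On Day 7 it was 0 of 10, where 3.53% of 7901 genes were, and on Day 14 it was 2 of 6, where 5.08% of 9365 genes were. The other gene of Day 14 was *Cdkn1c*, with 34.7 and 15.3 CPM (log2 1.19, 0.18 to 2.08).

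*Meg3* was the opposite of *H19*. Its level in *Ckm* spots and in other spots was 29.2 and 190.2 CPM at first (log2 -2.70, -4.34 to -1.46), then 214.7 and 374.2 CPM (log2 -0.80, -1.22 to -0.41) and last 98.8 and 218.3 CPM (log2 -1.14, -1.66 to -0.67). Many genes were low in *Ckm* spots, where muscle transcripts take up much of the UMIs: 46.9%, 23.5% and 46.8% of all genes counted were at least 2-fold lower there on Days 3, 7, and 14, against 2 of 4, 0 of 10 and 1 of 6 members. *Mest* had no UMI in the *Ckm* spots of Day 3, which allows up to 17.5 CPM at the floor of 3 counts, against 68.04 CPM in other spots (exact interval of the log2 ratio below -1.63). *Mest* was 124.9 against 225.0 CPM there on Day 7 (log2 -0.85, -1.41 to -0.34). *Plagl1* had no UMI in the *Ckm* spots of Day 14 against 15.3 CPM in other spots (exact interval below -0.58). With the mitochondrial, haemoglobin and muscle genes left out of the denominator, *H19* had log2 ratios of 0.88 on Day 7 and 1.98 on Day 14. With the top 10% of spots by *Ckm* the *H19* log2 ratios were 1.53, 0.3 and 0.73 on Days 3, 7, and 14. With the muscle list in place of *Ckm* they were 2.73, 0.89 and 1.67. In the 10% of spots richest in the muscle list, the *H19* interval held 0 on Day 14 (log2 0.58, -0.03 to 1.13). It was above 0 there on Days 3 and 7.

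**Figure D3:**
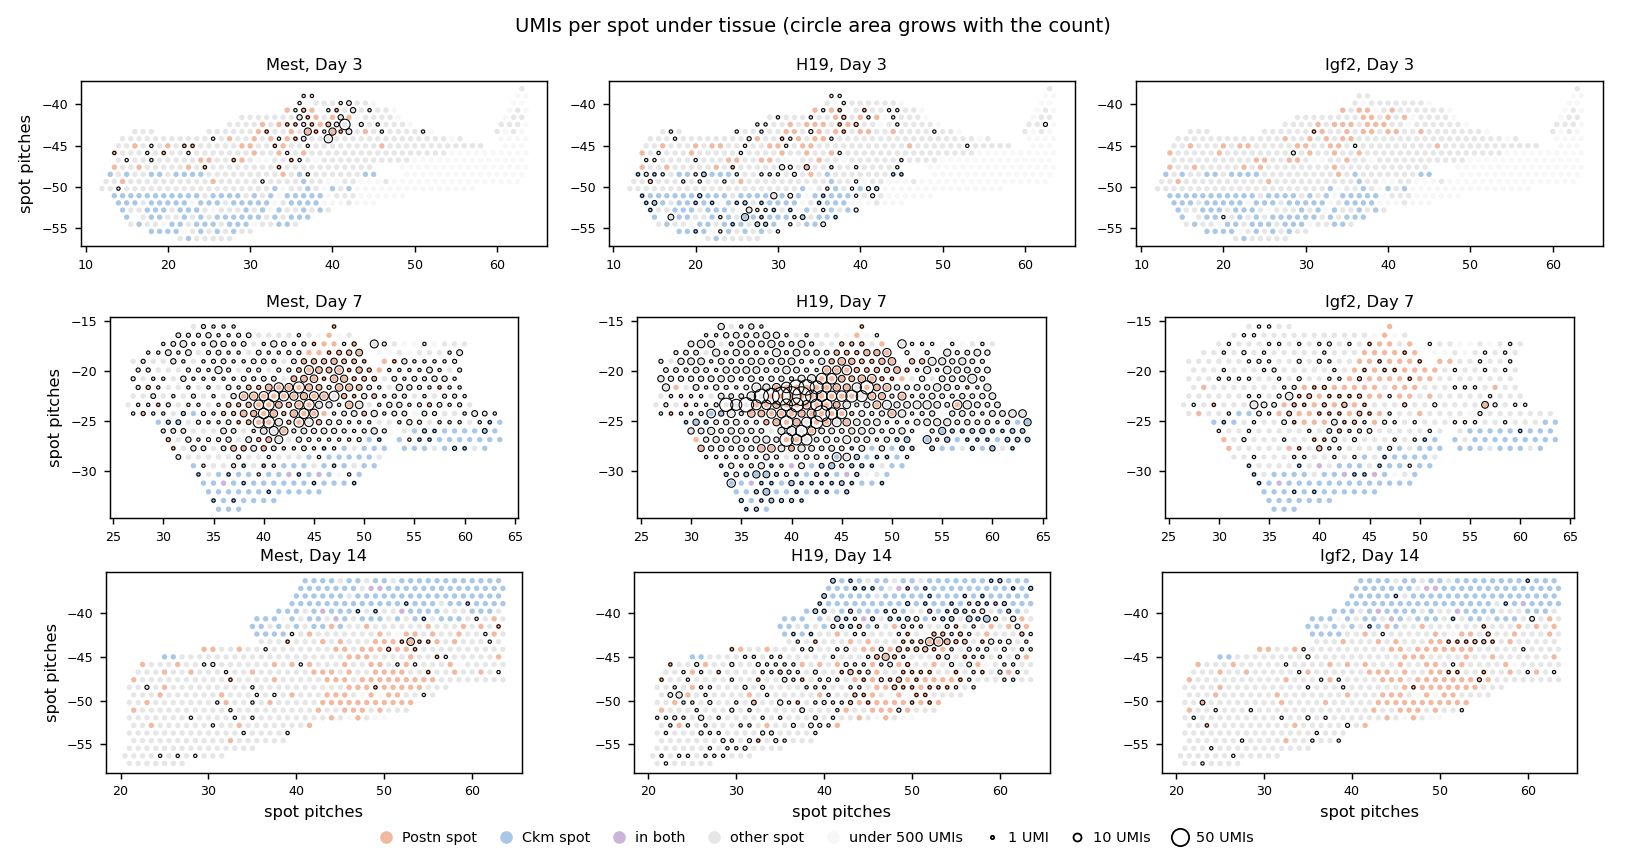
Maps of the spots under tissue in spot pitches (the distance between neighbouring spots, both axes) for *Mest*, *H19* and *Igf2* on each day, coloured by class, with a black circle whose area grows with the UMIs of the gene in that spot. On Day 3 the larger *Mest* circles sit together in a small area. On Day 7 *Mest* and *H19* have UMIs in 359 and 479 of the 549 spots. The circles show UMIs and not CPM, and on Day 7 the *Postn* spots were deeper than other spots. On Day 14 *Mest* is down to 58 UMIs in 47 spots.

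The Day 3 *Mest* UMIs were not spread like those of Day 7. On Day 3, 8 of the 664 spots held 50% of the *Mest* UMIs and the 4 richest held 36.9% of them, whereas on Day 7 the 4 richest spots held 6.38%. All 15 spots with 2 or more *Mest* UMIs on Day 3 lay within 7.55 pitches of each other, on a section 52.7 pitches across, and they held 80 of the 122 UMIs. These spots were singled out by their *Mest* UMIs, so their *Mest* level of 630.1 CPM is given as a description. In the same spots the 10 endothelium genes, among them *Pecam1* and *Cdh5*, summed to 1930 CPM against 502.0 CPM in the rest of the section, and 10 of the 15 spots were among the 52 richest in that list. *Pecam1* was at 401.7 against 103.2 CPM and *Mcam*, an adhesion molecule of vessels, at 456.8 against 68.2 CPM. The pericyte list, which includes *Mcam*, was at 842.8 against 489.7 CPM. *Mcam* alone gave 58 of the 107 UMIs of that list in these spots and 111 of 797 in the rest. *Rgs5*, a defining pericyte gene, was at 55.1 against 114.9 CPM. The muscle list was low there, at 12500 against 40840 CPM. The spots were deep, with a median of 7439 UMIs, and the part of depth was not tested.

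Of the other members, *Grb10* had 14 UMIs in these 15 spots (110.3 against 52.8 CPM in the rest), *H19* had 4 (31.5 against 94.6 CPM), *Meg3* had 8 (63.0 against 177.6 CPM) and *Igf2* and *Dlk1* had none. *Igf2* and *Dlk1* had only 5 and 6 UMIs in the rest of the section, so a count of 0 in 15 spots shows no difference. The cluster set much of the Day 3 level of *Mest*: without these spots *Mest* was at 25.5 CPM on Day 3, and the log2 ratios became 3.48 (3.04 to 3.96) for Day 7 and -1.02 (-1.62 to -0.41) for Day 14. Leaving out spots for their *Mest* UMIs lowers the level by construction. Across the 520 spots of Day 3 with at least 500 UMIs, the genes most like *Mest* by Pearson r of log1p UMIs per 10000 were *Cdh5* (0.320), *Mcam* (0.312), *Nes* (0.312), *Esam* (0.307) and *Sf3b5* (0.304), of which *Cdh5* and *Esam* are genes of endothelial junctions. That look at Day 3 was chosen after the values were seen, and the spots share a section and the depth of each spot.

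The genes most like *Mest* were also ranked on Day 7. Across 539 spots and 6705 genes with at least 100 UMIs, the 5 genes most like it were *Col1a1* (r = 0.400), *Sparc* (0.399), *Col3a1* (0.389), *Postn* (0.388) and *Col1a2* (0.382). *Col1a1*, *Col1a2* and *Col3a1* encode the fibrillar collagens of the dermis and *Sparc* a collagen-binding matrix protein. With each spot thinned to 2000 UMIs, 2 of these 5 genes remained among the 5. In endothelium-rich spots *Mest* stood at 394.5 CPM on Day 3 (69 UMIs) against 33.6 CPM in the rest, a log2 ratio of 3.56 (3.02 to 4.10). The same comparison gave 385.6 and 274.9 CPM on Day 7 (log2 0.49, 0.24 to 0.72) and 7.65 CPM from 2 UMIs and 12.9 CPM on Day 14 (log2 -0.75, -3.83 to 1.17). Without the 15 spots described above, the Day 3 levels were 50.8 CPM from 5 UMIs and 24.2 CPM (log2 1.07, -0.63 to 2.42), so the high level of the endothelium-rich spots on Day 3 rests on those spots. With the same 15 spots left out, *Mest* on Day 3 was at 56.2 CPM in *Postn* spots (18 UMIs) and 21.1 CPM in other spots (log2 1.41, 0.44 to 2.35).

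Each marker list was used in the same way, taking the 10% of spots with the highest summed level of its 10 genes. On Day 7, *Mest* was higher in the macrophage-rich spots (445.8 against 257.9 CPM, log2 0.79, 0.60 to 0.98) and in spots rich in the genes of fascia fibroblasts (487.9 against 267.5 CPM, log2 0.87, 0.63 to 1.10). In granulation-rich spots the ratio was smaller (361.7 against 264.4 CPM, log2 0.45, 0.27 to 0.63). Of the 54 macrophage-rich spots 29 were also *Postn* spots, so these sets overlap. *Mest* was lowest in muscle-rich spots (54.4 against 292.7 CPM, log2 -2.43, -3.74 to -1.38) and in epidermis-rich spots its log2 ratio was -0.75 (-1.15 to -0.38).

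*Igf2* was highest in the spots richest in regenerating muscle genes on Day 7. The list holds genes such as *Myh3*, *Myog* and *Mymk*, which mark new muscle fibres. In these spots *Igf2* stood at 162.7 CPM (50 UMIs) against 44.0 CPM in the rest (log2 1.89, 1.40 to 2.34). *H19* was at 1080 and 647.9 CPM in the same comparison (log2 0.74, 0.57 to 0.90) and *Cdkn1c* at 104.1 and 54.2 CPM (log2 0.94, 0.36 to 1.48), while *Mest* was at 221.3 and 290.6 CPM (log2 -0.39, -0.77 to -0.04). The genes most like *Igf2* on Day 7 were *Tnni1* (r = 0.253), *Thbs4* (0.251), *Myl4* (0.217), *Casq2* (0.216) and *Cilp* (0.189), of which *Tnni1*, *Myl4* and *Casq2* are muscle genes; this look was added after the values were seen, and the correlations are weak. Of the 54 regenerating-muscle-rich spots, 2 were *Postn* spots and 13 were *Ckm* spots. *Igf2* was also higher in the muscle-rich spots of Day 7, at 108.8 against 50.6 CPM from 14 UMIs (log2 1.11, 0.21 to 1.88).

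On Day 14 the regenerating-muscle-rich spots were high in *Mest*, *H19* and *Igf2*. *Mest* was at 64.3 CPM there (17 UMIs) against 9.44 CPM (log2 2.77, 1.86 to 3.62), of which 9 UMIs came from 1 spot, and without it the level was 31.8 CPM and the log2 ratio 1.75 (0.45 to 2.86). Granulation-rich spots held *Mest* at 39.3 CPM and fascia-fibroblast-rich spots at 37.9 CPM on that day. In the regenerating-muscle-rich spots *H19* stood at 276.0 against 90.4 CPM (log2 1.61, 1.23 to 1.97), *Igf2* at 30.3 against 11.97 CPM from 8 UMIs (log2 1.34, 0.05 to 2.42) and *Cdkn1c* at 41.6 against 17.3 CPM (log2 1.27, 0.21 to 2.19). *H19* was also high on Day 14 in spots rich in fascia fibroblast (log2 1.49), endothelium (1.38), macrophage (1.37) and granulation genes (1.19), so its level was not particular to regenerating muscle. The regenerating muscle list as a whole was low by then, summing to 231.8 CPM over the section. It had been at 35.0 CPM in the Day 3 section, where 2 of its 10 genes had no UMI, and at 813.0 CPM in that of Day 7. *H19* and *Igf2* had their Day 7 peak in the section where these muscle genes were also highest, and the part of regenerating muscle in that peak was not tested.

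Epidermis-rich spots were low in several members. On Day 14 the epidermis-rich spots held *H19* at 41.5 against 112.6 CPM (log2 -1.44, -2.02 to -0.91), *Peg3* at 14.7 against 35.0 CPM (log2 -1.25, -2.28 to -0.36) and *Ndn* at 5.36 against 16.1 CPM (log2 -1.58, -3.50 to -0.15). *H19* was also lower there on Day 3 (log2 -1.32, -2.23 to -0.53) and Day 7 (log2 -0.89, -1.16 to -0.64). Low *H19* was not particular to epidermis-rich spots. Its log2 ratios on Days 3, 7, and 14 were -2.38, -0.55 and -1.08 in sebaceous-gland-rich spots. In hair-follicle-rich spots they were -1.92, -0.39 and -1.58. *Cdkn1c* was higher in pericyte-rich spots on Day 3 (log2 1.90, 0.64 to 3.01, from 9 UMIs) and on Day 14 (log2 1.43, 0.45 to 2.29, from 13 UMIs), but on Day 7 it was at 47.1 against 58.6 CPM from 17 UMIs (log2 -0.31, -1.12 to 0.39). This was not particular to pericyte-rich spots. *Cdkn1c* was also higher in fascia-fibroblast-rich spots on Day 3 (log2 1.94, 0.61 to 3.09, from 8 UMIs) and in granulation-rich spots on Day 14 (log2 1.14, 0.26 to 1.94, from 16 UMIs). *Meg3* was highest in spots rich in fascia fibroblast genes on Day 3 (379.4 against 155.1 CPM, log2 1.29, 0.78 to 1.77) and in granulation-rich spots on Day 14 (458.0 against 211.1 CPM, log2 1.12, 0.89 to 1.34).

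**Figure D4:**
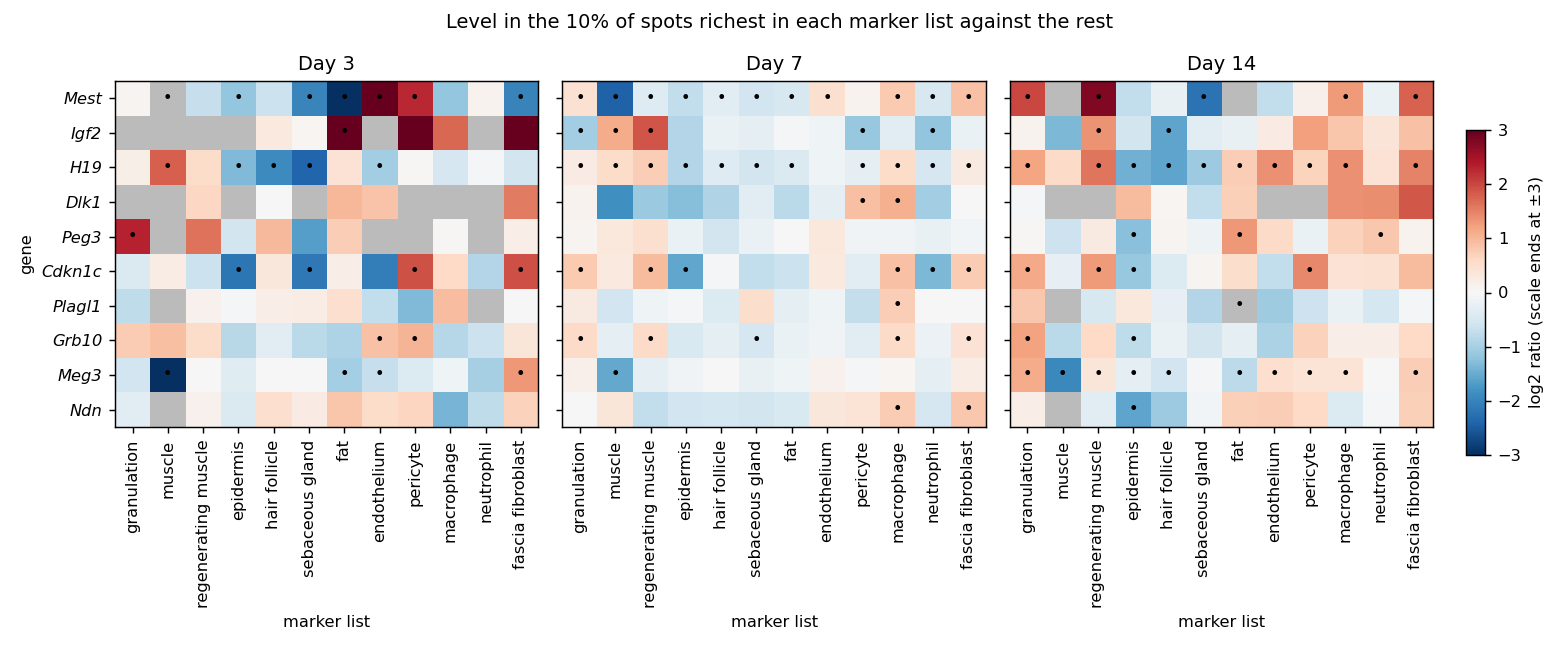
Log2 ratio of the CPM of each member (rows) in the 10% of spots richest in each marker list (columns) against the rest of the section, for each day. Dots mark exact 95% intervals that leave out 0 and grey marks 0 UMIs on a side; *Mest* is darkest under endothelium on Day 3 (3.56) and under regenerating muscle on Day 14 (2.77), and *Igf2* under regenerating muscle on Day 7 (1.89).

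The levels were also followed by distance from the nearest *Postn* spot, in spot pitches. On Day 7 *Mest* was at 416.7 CPM in *Postn* spots, 316.2 CPM (278.2 to 358.0) up to 1.5 pitches away, 182.9 CPM (160.8 to 207.1) from there to 3.5 pitches and 170.6 CPM (142.3 to 202.8) beyond. The level went down over the first 3 steps, and the last 2 overlapped. *Igf2* was instead highest in the spots next to *Postn* spots, at 78.4 CPM (60.1 to 100.5) against 42.1 CPM (32.5 to 53.7) within them. On Day 3 *Mest* was at 107.4 and 99.3 CPM in the first steps, and a single UMI lay beyond 3.5 pitches (3.17 CPM, 0.0803 to 17.7). *H19* ran the other way on Day 3, from 44.1 CPM in *Postn* spots to 225.1 CPM (175.8 to 283.9) beyond 3.5 pitches, where *Ckm* was at 13150 CPM. On Days 7 and 14 *H19* declined with distance, from 841.1 to 518.4 CPM and from 165.1 to 65.2 CPM.

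**Figure D5:**
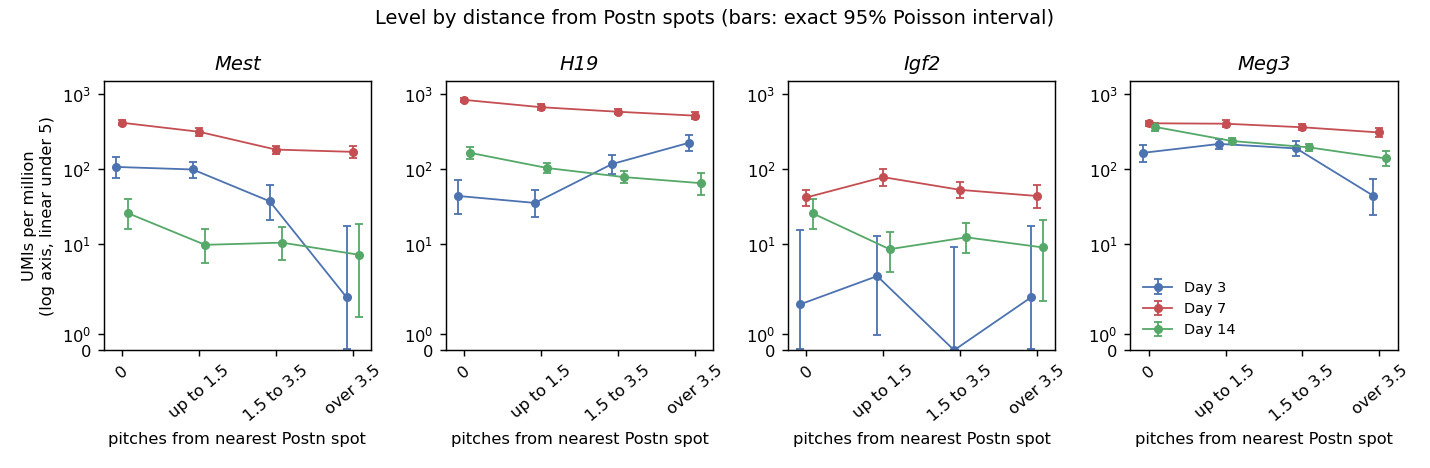
CPM of *Mest*, *H19*, *Igf2* and *Meg3* (vertical axis, log scale that is linear under 5) by distance from the nearest *Postn* spot in spot pitches, 1 line per day, with exact 95% Poisson bars. *H19* rises with distance on Day 3 (44.1 to 225.1 CPM) and declines on Day 7 (841.1 to 518.4 CPM).

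The spread over spots was also compared between members. Over the 45 pairs of members, Pearson r ran from -0.000192 to 0.230 on Day 7, with a median of 0.0830 and 18 pairs over 0.1. The medians were 0.00194 on Day 3 and 0.0283 on Day 14, with 3 and 4 pairs over 0.1. Counts of this size per spot hold down any correlation, and no finding is drawn from these values. On Day 7 all 10 members were higher in marked than in unmarked spots with an interval above 0, where 49.3% of 11525 genes were. On Day 3 it was 5 of 10, where 41.2% of 7998 genes were, and on Day 14 it was 5 of 10, where 61.3% of 11475 genes were. *Mest* was at 285.6 against 98.5 CPM on Day 7, while on Day 3 *Igf2* and *H19* were higher in unmarked spots (*H19* 147.4 against 90.8 CPM). *Ckm* was also higher in unmarked spots, at 11640 against 5411 CPM on Day 3.

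Other imprinted genes were counted in the same way. The member list was chosen on levels of these same sections, so no contrast between the lists is read. All lists were set with earlier results of these data known. Of 56 further imprinted genes found, 28 had enough UMIs from Day 3 to Day 7. Of these, 2 were at least 2-fold higher, where 8.04% of all genes counted were, and their median log2 ratio was 0.07. From Day 7 to Day 14, 5 of 29 were at least 2-fold lower, where 7.34% of all genes counted were. The median of the 29 was -0.26, against 0.13 for all genes. Of the neighbours of members, some moved and others did not. *Rian*, a non-coding RNA of the *Dlk1* and *Meg3* cluster, went from 24.3 to 137.1 and 60.3 CPM (43, 609 and 278 UMIs). *Zim1*, a neighbour of *Peg3*, went from 2.82 to 17.6 CPM (log2 2.64, 1.35 to 4.30) and stayed at 15.8 CPM on Day 14 (log2 -0.15, -0.63 to 0.33). *Mirg*, of the same cluster as *Rian*, had a log2 ratio of 0.58 (-0.15 to 1.37) to Day 7. *Copg2*, which overlaps *Mest*, had a log2 ratio of 0.39 (0.03 to 0.76) to Day 14. *Tnfrsf23*, a decoy receptor, fell from 20.03 to 4.77 CPM on Day 14 (log2 -2.07, -2.81 to -1.38). *Sgce*, which encodes epsilon-sarcoglycan, had a log2 ratio of -1.24 (-1.68 to -0.81) to Day 14, and *Slc38a4*, an amino acid transporter, of -1.02 (-1.42 to -0.63). *Rian* per *Meg3* UMI was 0.144 (0.102 to 0.199), 0.363 (0.330 to 0.398) and 0.257 (0.225 to 0.294) on Days 3, 7, and 14, so these transcripts of 1 cluster changed unequally.

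The IGF pathway around *Igf2* and *Grb10* was described from a list of 15 genes, of which 13 had enough UMIs in both steps. From Day 3 to Day 7, 1 of the 13 was at least 2-fold higher, where 8.04% of all genes counted were. The median log2 ratio was 0.40. From Day 7 to Day 14, 5 were at least 2-fold lower and 1 was higher, where 7.34% and 10.9% of all genes counted were. The median was -0.35. *Igf1*, the other ligand, went from 88.0 to 172.0 and 43.8 CPM, so the fall to Day 14 was 3.93-fold (log2 -1.97, -2.20 to -1.75), close to the 4.01-fold of *Igf2*. *Igf2r*, the receptor that clears *Igf2* and is imprinted itself, went from 38.9 to 71.6 and 33.8 CPM. The signalling receptor *Igf1r* had the reverse course, from 45.1 to 23.4 and 37.5 CPM. Among the binding proteins, *Igfbp7* stood at 405.7, 1134 and 310.1 CPM and *Igfbp3* fell from 325.5 to 118.6 CPM (log2 -1.46, -1.60 to -1.31), while *Igfbp2* was the gene above 2-fold on Day 14 (30.2 to 98.0 CPM, log2 1.70, 1.42 to 1.99).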

How the data were processed

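Skin wound sections of Days 3, 7, and 14 (1 each) were analysed. The authors deposited raw UMI counts per gene and spot, made per the labels with a Visium kit; the submitters' processing notes name Space Ranger 1.3.0 and mm10. Spot marks came from the deposited position lists. The members and all gene lists were chosen with earlier results of these data known. The 10 members, the 5 genes most like *Mest* on Day 7, *Postn*, *Ckm*, up to 6 other imprinted genes with the largest ratios and the IGF list were named; other names were chosen after their values were seen.

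UMIs were summed over marked spots and divided by all UMIs. Sums carry exact Poisson and ratios exact conditional binomial 95% intervals, tested on simulated counts. Genes with at least 50 UMIs over both sides were counted, and a count of 0 was set to 3. Alternatives were the mean of spot CPM, other denominators, TMM (edgeR 4.0.16), size factors (DESeq2 1.42.0), other spot sets, thinning and marker lists. Annotation was GENCODE M21, with 32158 of 32285 identifiers matched. Python 3.11.15, numpy 2.4.6, scipy 1.17.1, pandas 2.3.3, matplotlib 3.10.9 and R 4.3.3 were used. No doublet caller was applied, since a spot is a region that can hold several cells.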

Additional observations from a re-analysis of the deposited data

Results flagged for a closer look

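The place of *H19* and *Igf2* relative to *Postn* spots had opposite signs on different days, each with an interval that left out 0, and the differences between days were not tested. The log2 ratio of *H19* in *Postn* spots against other spots was -0.82, 0.58 and 1.21 on Days 3, 7, and 14. With the granulation list in place of *Postn*, the Day 3 value was 0.04. *Igf2* had a log2 ratio of -0.47 on Day 7 and 1.37 on Day 14, and with the granulation list the Day 14 value was 0.19.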

How the results depend on the processing

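No value reversed its sign past 2-fold. Of 158 recomputed *Mest* values and counts of members or genes, 137 stayed within the main interval or 1.5 times the count, and of 507 other values 475 did. Size factors of DESeq2 shifted all log2 ratios of Day 14 by -0.12 against Day 7 and -0.13 against Day 3. The log2 ratio of *Mest* against Day 3 became 2.37 on Day 7 and -1.78 on Day 14 with the mean of spot CPM, and 3.48 and -1.02 without the Day 3 spots with 2 or more *Mest* UMIs, an alternative chosen after seeing the data. With all spots of the slide, 1 member was 2-fold lower on Day 14 than on Day 3.

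With the top 10% of spots, the *Mest* log2 ratio in *Postn* spots on Day 7 was 0.55, the members 2-fold higher in *Postn* spots numbered 0 on Day 7 and 5 on Day 14. In *Ckm* spots 1, 2 and 2 members were then lower on Days 3, 7, and 14, and 0 were higher on Day 14. With marker lists, 1 member was higher in *Postn* spots on Day 3 and 2 on Day 7, and 1 was lower in *Ckm* spots on Day 7. The other denominator left 0 members lower in *Ckm* spots on Day 14. Without a minimum per spot, 1 member was lower in *Postn* spots on Day 3 and 1 in *Ckm* spots on Day 7. Without the richest spot of each gene, also chosen after seeing the data, 1 member was higher in *Postn* spots on Day 3 and 0 on Day 7. After thinning spots to 2000 UMIs, 2 of the 5 genes most like *Mest* remained. The causes of these shifts were not tested. The Day 3 depth limits *Igf2*, *Dlk1* and *Peg3*, with 5, 6 and 14 UMIs. No paired analysis was possible because each day had 1 section.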
